A study of Mus musculus with 16 samples.

Results

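The question addressed here was which parts of the response to Sox9 loss in the mouse intervertebral disc differed between its inner and outer compartment, and which did not. The 6561 probe sets described are those of 22206 tested whose control means were at least 8 on the log2 scale in both compartments, so that a fall could be seen in each. They stand for 5717 of 19505 genes, with 832 probe sets that carry no gene symbol. They were chosen by their control signals, and the contrast was the signal in the nucleus pulposus (NP) minus that in the annulus fibrosus (AF) within each animal, compared between 4 knock-out and 4 control animals.

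All 8 mice were female and between 3 and 4 months old. The control animals (CTR, C1 to C4) were Sox9fl/fl and carry no Cre in the labels, and the knock-out animals (cKO, M1 to M4) were AcanCreERT2Sox9fl/fl. Tamoxifen is named for the cKO animals alone, on 2 consecutive days, and the discs were dissected 5 days after injections began, so the early response is what was measured. Both groups carry the floxed Sox9 allele, and genotype cannot be told apart from tamoxifen or from the Cre driver. The driver is the aggrecan gene Acan, so recombination is limited to cells that express Acan. NP and AF were dissected by hand from lumbar and tail discs, and each was pooled per animal, which gave 16 arrays with 4 per compartment and genotype.

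The NP is the hydrated core of the disc and descends from the notochord. The AF is the ring of collagen lamellae around it, with fibrocartilage on its inner side. SOX9 is the transcription factor of the chondrocyte lineage. With SOX5 and SOX6 it drives the genes of cartilage matrix, such as those of collagen II and aggrecan, and it is expressed in both compartments of the adult disc.

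Markers of cells outside the disc were uneven among the AF arrays and low on the NP arrays. For 25 neutrophil and granulocyte genes, the mean signal on the AF control arrays was 9.98, 7.46, 6.51 and 7.21 in C1 to C4, and on the AF cKO arrays 10.26, 10.07, 11.11 and 8.42 in M1 to M4, against 6.02 to 7.27 over the 8 NP arrays. Control C1 thus lay with the cKO arrays, and M4 stood below the other cKO arrays. For 40 skeletal muscle genes, the AF arrays of M2 and M4 were at 8.58 and 8.44, and the other AF arrays at 6.17 to 6.81. For 15 osteoclast genes, the AF arrays of C1 and M3 were the 2 highest, at 9.38 and 10.62. In NP, 32 annulus and tendon genes were at 8.08 in M4 and at 6.74 to 7.44 on the other arrays. For scale, the 5222 negative control probe sets had medians from 6.14 to 6.59 per array. In pooled tissue, fewer cells of a type and less RNA per cell cannot be told apart. The part of these markers in the results was not tested, except where values without these animals are given.

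**Figure D1:**
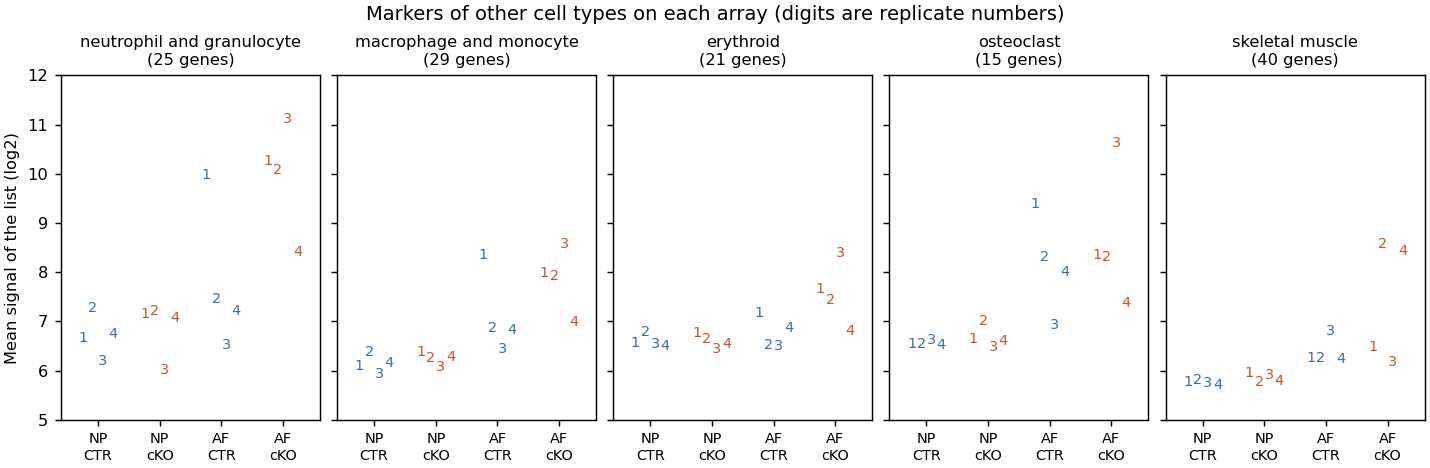
Mean log2 signal (vertical axis) of 5 marker lists on each of the 16 arrays, by compartment and genotype, with the replicate number as the plotting symbol (blue, CTR; orange, cKO). The AF array of C1 (9.98) lies among the cKO arrays for neutrophil genes, and the AF arrays of M2 and M4 (8.58 and 8.44) stand above all others for muscle genes.

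No gene passed the test of a difference between the compartments. The limma test of the difference called 0 of the 6561 probe sets at an adjusted p under 0.05, and 0 of all 22206 (0% called). The lowest adjusted p was 0.624 among the 6561 and 0.124 over all probe sets. At an unadjusted p under 0.05, 374 of the 6561 (5.7%) had a lower NP minus AF value in cKO, against 3.45% of all tested. A higher value was found for 150 (2.29%), against 3.75%. The cKO and CTR animals did not overlap for 204 probe sets that were lower (3.11%, against 1.71% of all tested) and for 67 that were higher (1.02%, against 1.89%). Without C1 and M3, whose AF arrays were highest for osteoclast genes, the same test called 5 probe sets, of which 3 belong to the 6561. All 5 were lower in cKO, and 4 of them were the neutrophil genes S100a8, S100a9, Ngp and Retnlg, with Thsd4 as the fifth. This omission was chosen after seeing the data. C1 was also the control with high neutrophil genes in AF, and its NP minus AF values for these 4 genes lay inside the cKO range. Leaving it out removed that overlap, so the 4 calls are no independent result. Retnlg and Thsd4 had a control mean under 8 in at least 1 compartment.

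The precision of the contrast sets what could have been seen. The 95% interval of a difference reached 0.75 to either side in the median probe set, where 1 on the log2 scale is a factor of 2. For 2681 probe sets (40.9%) the whole interval lay within 1 of 0. For 7 it lay beyond 1. These intervals carry no adjustment for the number of genes, and none of the 7 passed the adjusted test. The 7 were Sox9, Cd36, Car1, S100a8, S100a9 and Ngp, lower in the cKO contrast, and Adgrg6, higher.

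At the median, the 6561 probe sets shifted a little in opposite directions. The median change from CTR to cKO was -0.06 in NP and 0.09 in AF, and the median difference was -0.17, against 0.02 over all 22206 probe sets. Of the 6561, 67.5% had a lower NP minus AF value in cKO. This offset depended on scaling: it was -0.24 after centring each array on its median and -0.01 after a second quantile normalization. Group medians below are therefore read against the offset, and a list whose sign turns under a scaling is named as such.

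The changes in the 2 compartments were weakly related. Across the 6561 probe sets, the NP and AF changes had a Pearson correlation of 0.31 and a Spearman correlation of 0.13. They come from different arrays of the same 8 animals. Without the 32 probe sets called in a compartment, Pearson's value was 0.23 over 6529. Leaving out C2 gave 0.20 and leaving out C3 gave 0.43 over all 6561.

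**Figure D2:**
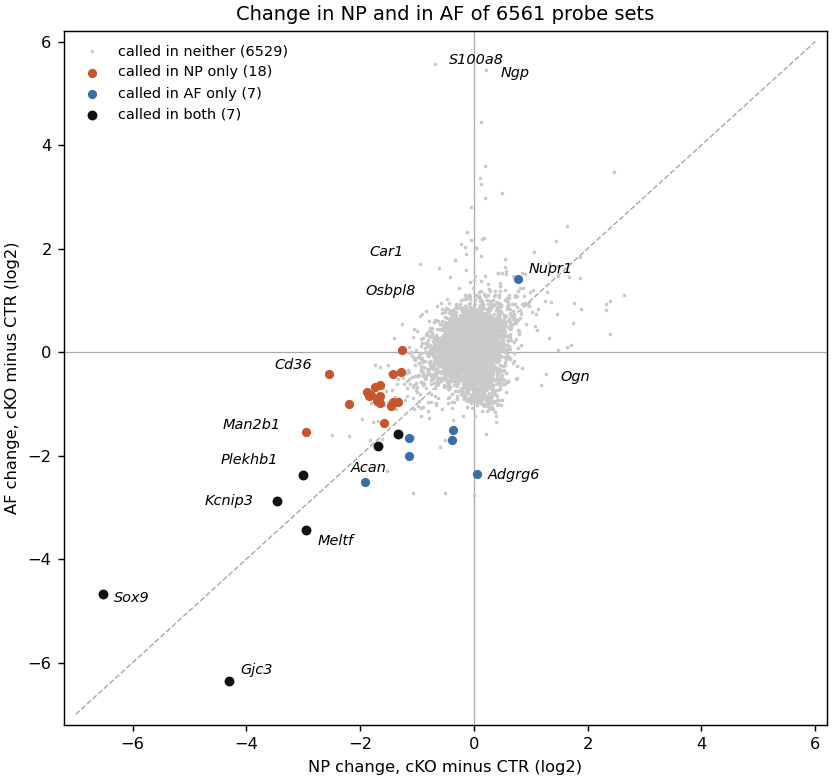
Change from CTR to cKO in NP (horizontal axis, log2) against that in AF (vertical axis, log2) for the 6561 probe sets, coloured by the compartment in which the change passed an adjusted p under 0.05. Sox9, Gjc3, Kcnip3, Plekhb1 and Meltf lie far along the dashed line of equal change, and all points called in NP but 1 lie below 0 in AF as well.

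In NP, 25 of the 6561 probe sets changed and all 25 fell, against falls in 27 of all 22206 tested (0.122%). In AF, 13 of the 6561 fell, against 19 of all 22206 (0.0856%). A rise in AF was called for 1 of the 6561, Nupr1, against 3 of all 22206 (0.0135%). The changes in both compartments concerned 7 genes: Sox9, Gjc3, Kcnip3, Plekhb1, Meltf, Slc26a2 and Tubb2b. All 7 fell in both.

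Sox9 itself was read first as the check of the deletion. In NP its signal was 16.19, 16.14, 16.79 and 15.95 in C1 to C4, and 9.69, 9.55, 10.12 and 9.65 in M1 to M4. In AF it was 17.25, 17.45, 16.59 and 16.39, and 12.10, 11.43, 12.99 and 12.44. The genotypes did not overlap in either compartment, and the cKO signal was still above the negative controls in both. Sox9 fell by 6.51 in NP (adjusted p = 3.11e-10) and fell by 4.68 in AF (adjusted p = 1.05e-07). The NP minus AF value was lower in every cKO animal (-2.86 to -1.88) than in any CTR animal (-1.31 to 0.20), a difference of -1.83 (95% interval -2.64 to -1.02, unadjusted p = 0.0003, adjusted p = 0.667).

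Gjc3, which encodes a connexin of gap junctions, had the largest fall of any of the 6561 probe sets in AF. Its AF signal was 16.82, 16.11, 14.86 and 15.64 in CTR, against 9.58, 9.55, 9.87 and 9.0 in cKO, and it fell by 6.36 (adjusted p = 1.11e-07). Its NP signal was 12.15, 13.02, 12.98 and 11.17 in CTR, against 8.46, 7.94, 7.10 and 8.63 in cKO, and it fell by 4.30 (adjusted p = 4.88e-05). The groups did not overlap in either compartment, and both the control and the cKO mean were higher in AF (15.86 and 9.5) than in NP (12.33 and 8.03). The difference of the falls was 2.06 (95% interval 0.73 to 3.39, unadjusted p = 0.00533, adjusted p = 0.687), and the animals overlapped, with M3 at -2.76 below C3 at -1.88.

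Kcnip3, a calcium-binding protein that interacts with potassium channels, fell by 3.46 in NP and fell by 2.88 in AF (adjusted p = 4.88e-05 and 0.000487). Its cKO signal was 6.33 to 6.82 in NP and 6.04 to 7.39 in AF, at or near the negative control medians, so both falls are limited from below by background. Plekhb1, a pleckstrin homology domain protein of membranes, fell by 3.00 in NP and fell by 2.37 in AF (adjusted p = 0.000177 and 0.00328). Its signals were 11.38 to 12.81 in NP CTR and 8.57 to 9.48 in NP cKO, and 10.82 to 11.77 and 8.37 to 9.48 in AF. Control and cKO arrays were separate in both compartments for these genes. The differences, -0.58 (95% interval -1.44 to 0.28) for Kcnip3 and -0.64 (-1.57 to 0.30) for Plekhb1, were within the animal spread.

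Meltf encodes melanotransferrin, an iron-binding surface protein of chondrocytes. It fell by 2.94 in NP and fell by 3.45 in AF (adjusted p = 0.00461 and 0.000661), with M2 the highest cKO array in both compartments (10.24 and 11.89). Slc26a2, the sulfate transporter that feeds proteoglycan sulfation, fell by 1.34 in NP and fell by 1.59 in AF (adjusted p = 0.0277 and 0.00728). Its difference was 0.25 with an interval of -0.54 to 1.04. Tubb2b, a beta-tubulin, fell by 1.68 in NP and fell by 1.82 in AF (adjusted p = 0.047 and 0.0269), with a difference of 0.14 (-0.64 to 0.91). Its cKO signals, 6.89 to 7.53 in NP and 6.46 to 7.61 in AF, lay at or near the negative control medians, so these falls too are limited from below.

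The 7 shared calls were not equally firm. Sox9, Gjc3 and Kcnip3 kept both calls under the 19 alternatives computed for each change, and Plekhb1 and Meltf whichever 1 animal was left out. Without C1 and M3, Plekhb1 reached an adjusted p of 0.0535 in AF and Meltf 0.0542 in NP. Slc26a2 kept its AF call whichever 1 animal was left out and lost its NP call without M1, M3, M4, C2, C3 or C4 (adjusted p up to 0.162). Tubb2b lost its NP call without any 1 animal but C4 (up to 0.268) and its AF call without M1, M2, M3 or C2 (up to 0.134). Fitted on the 8 arrays of 1 compartment alone, Slc26a2 passed in neither (0.0576 in NP, 0.0651 in AF) and Tubb2b lost its AF call (0.31).

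**Figure D3:**
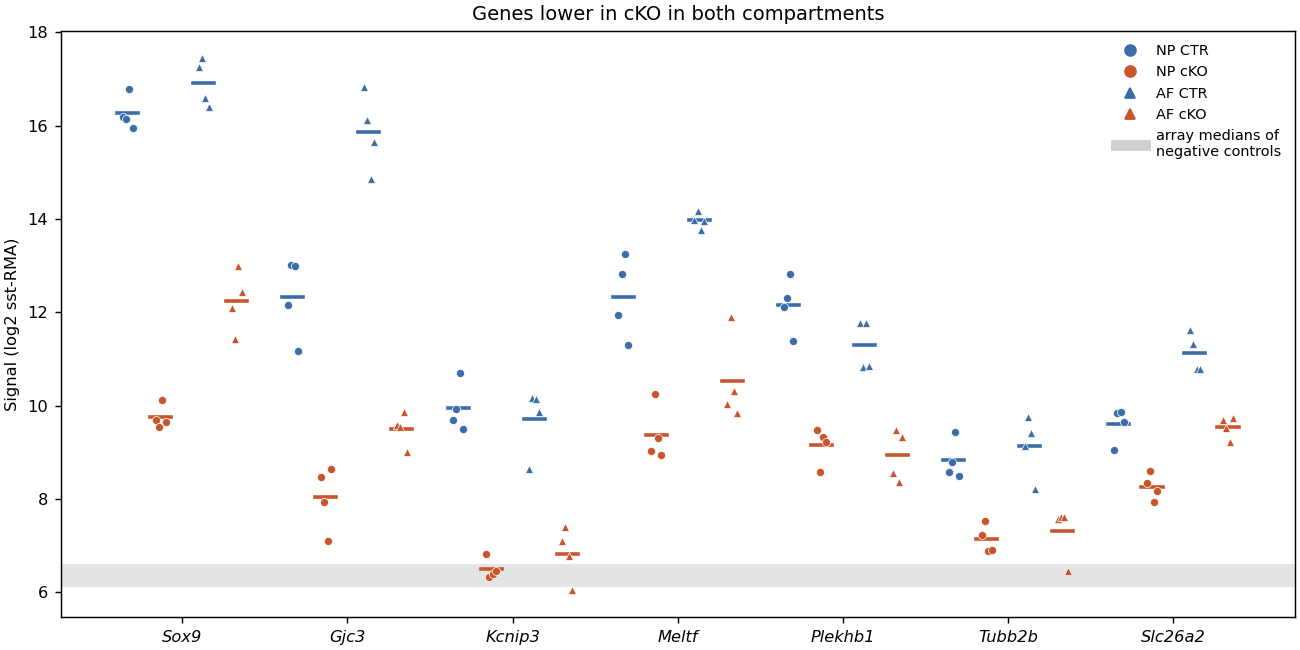
Log2 signal (vertical axis) on each array of the 7 genes that fell in both compartments (circles, NP; triangles, AF; blue, CTR; orange, cKO; bars, means of 4 arrays). CTR and cKO arrays are separate for each gene in each compartment, and cKO arrays of Kcnip3 and the lowest of Tubb2b (6.46) reach the grey band of negative control medians (6.14 to 6.59).

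Calls in NP alone numbered 18. Of these, 17 were lower in AF as well (94.4%), at a median of -0.85 and a range of -1.55 to 0.05, while 38.0% of all 6561 probe sets were lower in AF. At an unadjusted p under 0.05, 14 of the 18 were lower in AF. The 18 were chosen by an NP call and the lack of an AF call, with AF control means of at least 8 and a variance fitted on the arrays of both compartments, so these AF values are a description. All 18 had a lower NP minus AF value in cKO, 12 of them at an unadjusted p under 0.05, but the NP arrays that chose them are part of that value, so its sign carries no information.

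Cd36, the receptor for fatty acids and thrombospondin, had the largest difference among them. Its NP signal was 9.72, 9.68, 10.82 and 9.78 in CTR, against 7.81, 6.49, 8.49 and 7.02 in cKO, and it fell by 2.55 (adjusted p = 0.00707). Its AF signal was 9.31, 8.21, 9.20 and 8.18 in CTR, against 8.43, 8.62, 8.35 and 7.79 in cKO, with overlapping groups and a change of -0.43 (adjusted p = 0.718). The NP minus AF value was 0.41, 1.47, 1.63 and 1.60 in CTR, against -0.62, -2.13, 0.15 and -0.77 in cKO. The difference of -2.12 (-3.10 to -1.14) had an unadjusted p of 0.000463 and did not pass (adjusted p = 0.687). Control signals were nearer to the negative control medians (6.14 to 6.59) in AF (8.18 to 9.31) than in NP (9.68 to 10.82). The range over which a fall could show was thus smaller in AF. Cd36 is also on the adipocyte list, whose 18 measured genes averaged 7.15 to 7.45 on the NP arrays of both genotypes and 7.37 to 8.45 on the AF arrays.

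Membrane traffic and lysosomal genes were among the NP calls. Man2b1, a lysosomal mannosidase, changed by -2.95 in NP and had -1.55 in AF. Vps35, the core of the retromer, changed by -1.80 in NP and had -0.82 in AF, and the sorting nexin Snx10 changed by -1.84 and had -0.85. Their signals on the AF cKO arrays overlapped the controls. Adjusted p-values in AF were 0.292, 0.411 and 0.402, and the differences were -1.40, -0.98 and -0.99 (unadjusted p = 0.0229, 0.0339 and 0.0138).

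Among the other NP calls, Tmod2, which caps actin filaments, changed by -2.19 in NP against -1.01 in AF, and the cation channel gene Trpm4 by -1.88 against -0.77. Dhrs3, a retinaldehyde reductase, changed by -1.75 against -0.68, and its animals did not overlap in the contrast (CTR 0.45 to 1.09, cKO -0.89 to 0.00). Myh11, the smooth muscle myosin, changed by -1.66 against -0.85. Its cKO signals, 6.89 to 7.38 in NP and 6.96 to 7.62 in AF, were near the negative control medians, so both values are limited from below. For these 4 the AF values did not pass (adjusted p = 0.253, 0.373, 0.299 and 0.253). Slc43a3, a nucleobase transporter, and S100b, a calcium-binding protein known from the NP and from nerve, came close to equal values, at -1.58 and -1.37, and at -1.46 and -1.04. Their differences were -0.21 (-0.88 to 0.46) and -0.41 (-1.30 to 0.47). Btbd3 and Mtmr10 had -1.71 and -1.65 in NP and -0.95 and -0.99 in AF. Abr was the single NP call with a positive AF value (-1.26 in NP, 0.05 in AF). Rhoj, Hopx, Cp, Cab39l and a probe set with no symbol make up the rest. Abr, Rhoj, Hopx, Cp and Cab39l were named after their values were seen.

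Most of the NP calls followed here did not survive every omission of 1 animal. Cd36, Tmod2 and Dhrs3 kept the NP call whichever 1 animal was left out. Without M2 and M4 together, Cd36 had -1.85 and lost it (adjusted p = 0.226), while Tmod2 and Dhrs3 kept it. Myh11 lost it without M1 (0.0685), and Trpm4 without M1 or C3 (up to 0.0775). Man2b1 and Btbd3 lost it without M1, C2, C3 or C4 (up to 0.136 and 0.163), Snx10 and Vps35 without any 1 animal but M3 or C1 (up to 0.203 and 0.226). Mtmr10 lost it without any 1 animal but M4 or C1 (up to 0.264), S100b without any but M3 or C2 (up to 0.186) and Slc43a3 without any but M3 or C4 (up to 0.179). In a fit of the 8 NP arrays alone, Man2b1 and S100b did not pass (adjusted p = 0.0582 for both). The count of 25 was 9 without M1, 10 without C3, 15 without C4, and 11 without M2 and M4 together.

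Calls in AF alone numbered 7. Of the 6 that fell, 5 were lower in NP too, at a median of -0.76 over the 6, while 58.5% of all 6561 probe sets were lower in NP. These NP values are likewise a description. Nupr1, a stress-induced chromatin protein and the only rise, rose by 1.42 in AF (adjusted p = 0.0269) and stood 0.77 higher in NP, where CTR arrays were at 12.48 to 13.11 and cKO arrays at 13.17 to 13.84 (adjusted p = 0.695).

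Adgrg6, an adhesion G protein-coupled receptor studied in cartilage and Schwann cells, was the exception. Its AF signal was 13.34, 13.03, 10.97 and 12.03 in CTR, against 9.76, 9.84, 10.43 and 9.96 in cKO, and it fell by 2.35 (adjusted p = 0.0163). In NP it had 8.02, 7.96, 8.28 and 9.04 in CTR and 8.23, 8.02, 8.58 and 8.69 in cKO. The NP groups overlapped, with a change of 0.05. The NP signal was near the level of 8 that admits a probe set, against 12.34 on average in AF controls, so the range over which a fall could show was smaller in NP. The difference was 2.40 (95% interval 1.23 to 3.56, unadjusted p = 0.000678, adjusted p = 0.687).

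Acan, which encodes aggrecan, the main proteoglycan of the disc, fell by 2.0 in AF (adjusted p = 0.0218) and had -1.14 in NP (adjusted p = 0.513). Signals were high: in NP 19.03, 18.89, 18.96 and 19.07 in CTR and 17.62, 18.90, 17.21 and 17.66 in cKO, and in AF 19.19, 19.31, 18.80 and 19.20 in CTR and 17.01, 18.23, 16.37 and 16.89 in cKO. M2 was the highest cKO animal in both, within the control range in NP only. Within each animal the NP minus AF value lay at -0.42 to 0.16 in CTR and at 0.61 to 0.85 in cKO, a narrow and non-overlapping pair of groups. Its difference was 0.86 (0.29 to 1.43, unadjusted p = 0.00625, adjusted p = 0.687). These signals lie close to the top of the scale, which ends at 19.93. The Cre driver, carried by the cKO animals alone, is that of Acan. Its part in the Acan values cannot be told apart from that of Sox9 loss.

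Both FGF receptor genes called in AF had values below 0 in NP. Fgfr3, which restrains growth plate chondrocytes, fell by 2.50 in AF (adjusted p = 0.0151) and had -1.92 in NP, where the groups did not overlap (CTR 9.56 to 10.67, cKO 7.77 to 8.72, adjusted p = 0.101). Its difference was 0.58 (-0.77 to 1.93). Fgfrl1, an FGF receptor without a kinase domain, fell by 1.51 in AF (adjusted p = 0.0244) with -0.37 in NP and a difference of 1.14 (0.41 to 1.86, unadjusted p = 0.00481). The glycoprotein hormone gene Stc2 fell by 1.70 in AF with -0.38 in NP, and Slc35e3 fell by 1.66 in AF with -1.15 in NP.

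No AF-only call was kept by every omission of 1 animal, and all 7 were lost in a fit of the 8 AF arrays alone (adjusted p 0.175 to 0.31). Acan and Fgfrl1 lost it without M1, M3, C2 or C4 (adjusted p up to 0.106 and 0.129), Fgfr3 without M1, M2, C2 or C4 (up to 0.0824), Adgrg6 without M1, M2 or C2 (up to 0.0824) and Slc35e3 without M1, M2, M3 or C2 (up to 0.0881). Stc2 and Nupr1 lost it without M1, M2, M3, C2 or C4 (up to 0.216 and 0.173). The AF count of 14 ranged more widely than that of NP. It was 6 without M1 or C2, 9 without M2, M3 or C4, 26 without C3, 30 without M4 and 39 without C1, the control with high neutrophil genes. Without C1 it held 20 falls and 19 rises.

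The compartments were also compared by probe sets whose CTR and cKO arrays did not overlap. In NP, 211 of the 6561 were lower without overlap (3.22%, against 1.82% of all tested) and 41 higher (0.625%, against 1.11%). In AF, 112 were lower (1.71%, against 2.54%) and 220 higher (3.35%, against 1.79%). The 2 sets of falls shared 31 probe sets, 14.7% of the NP falls and 27.7% of the AF falls. The 2 sets of rises shared 6, which is 14.6% of the NP rises and 2.73% of the AF rises. In opposite directions, 4 probe sets were lower in NP and higher in AF, and none the other way.

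Promoters are shown for 1 gene of each kind, called in both compartments (Gjc3), in NP alone (Cd36) and in AF alone (Adgrg6). Each line gives the 250 bases before the transcription start, 5′ to 3′ on the gene's strand, from RefSeq on GRCm38.p6. Capitals mark the core letters to which SOX proteins can bind, searched as ACAATG or ACAAAG on both strands.
Gjc3, chr5:137963099-137963348, minus strand: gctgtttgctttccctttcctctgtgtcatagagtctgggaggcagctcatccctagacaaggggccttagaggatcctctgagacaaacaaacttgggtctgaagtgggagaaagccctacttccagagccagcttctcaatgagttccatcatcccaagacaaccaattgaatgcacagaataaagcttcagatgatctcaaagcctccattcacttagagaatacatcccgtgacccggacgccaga
Cd36, chr5:17835897-17836146, minus strand: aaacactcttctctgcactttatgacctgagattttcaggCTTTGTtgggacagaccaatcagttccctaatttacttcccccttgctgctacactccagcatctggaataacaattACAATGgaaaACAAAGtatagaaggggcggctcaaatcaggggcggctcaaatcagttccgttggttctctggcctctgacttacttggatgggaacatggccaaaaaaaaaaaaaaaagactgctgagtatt
Adgrg6, chr10:14545037-14545286, minus strand: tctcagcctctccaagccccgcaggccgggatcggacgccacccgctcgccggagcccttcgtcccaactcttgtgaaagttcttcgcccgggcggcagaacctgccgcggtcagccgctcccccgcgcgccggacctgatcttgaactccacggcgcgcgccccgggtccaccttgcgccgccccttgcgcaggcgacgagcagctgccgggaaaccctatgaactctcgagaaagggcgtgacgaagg
The Cd36 window held 3 matches, and 0.493% of 32851 promoters held 3 or more. The windows of Gjc3 and Adgrg6 held none. At least 1 match was found in 25.2% of all promoters and in 16.9% of 6049 promoters of the genes at 8 or above. A match of 6 letters is a description of these windows and no measure of binding, and none says only that these letters do not occur in the window.

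The 10 smallest p-values for a lower NP minus AF value included several genes that fell short of a call in either compartment. Osbpl8, a lipid transfer protein of the endoplasmic reticulum, had the smallest. Its NP signal was 10.77, 10.58, 11.03 and 10.18 in CTR and 9.91 to 10.12 in cKO. The AF signal was 8.97, 9.27, 9.07 and 8.85 in CTR, against 9.77, 9.95, 9.89 and 10.12 in cKO. The NP excess of the controls was thus absent in cKO: the NP minus AF value was 1.31 to 1.96 in CTR and -0.04 to 0.23 in cKO. The difference was -1.54 (95% interval -2.14 to -0.94, unadjusted p = 9.75e-05, adjusted p = 0.624), made of -0.64 in NP and 0.90 in AF.

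Car1 and Srgn also had a negative NP and a positive AF value. Car1, a carbonic anhydrase of red cells, had -0.95 in NP and 1.71 in AF, with the AF array of M3 at 12.38 and the others at 8.54 to 10.45. Its difference was -2.66 (-3.86 to -1.46). Srgn, the proteoglycan of blood cell granules, had -0.56 in NP and 0.84 in AF, a difference of -1.40 (-2.07 to -0.72). Both genes are known from blood cells, and Car1 is itself on the erythroid list. The AF array of M3 was also the highest for erythroid (8.39) and neutrophil (11.11) genes. In controls both genes were higher in NP than in AF, at 10.27 against 9.08 for Car1 and 12.49 against 11.95 for Srgn. The part of blood cells in these values was not tested.

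The other genes with a lower contrast included a homeobox gene and a chromatin gene. Prrx1, a homeobox factor of skeletal mesenchyme, had -1.26 in NP and 0.55 in AF, a difference of -1.81 (-2.78 to -0.84). Rnd3 had -0.80 and 0.60, a difference of -1.40. Galnt3, which starts mucin-type glycosylation, had -0.38 and 0.72, a difference of -1.10, and Morc2a, a chromatin protein, had -0.48 and 0.54, a difference of -1.03. Fsd1l had -1.01 and 0.41. With Sox9 and Cd36 these make up the 10. The animals did not overlap for any of them, and 3.11% of all 6561 were lower without overlap. The 10 were chosen by the p of this same contrast, which favours separate animals, so their separation is no further support.

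Among the 10 smallest p-values for a higher NP minus AF value, matrix and glycosylation genes stood beside the AF calls. Col9a3, a chain of the collagen IX that coats collagen II fibrils, had an AF signal of 12.28, 10.91, 10.06 and 11.14 in CTR and 9.25 to 9.63 in cKO. The NP signal was 8.18 to 8.80 in CTR and 8.30 to 9.04 in cKO. The AF change of -1.58 did not pass (adjusted p = 0.0776), NP had 0.21, and the difference was 1.79 (0.93 to 2.64). As for Adgrg6, the NP level left less room for a fall than the AF level.

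Ogn, osteoglycin, a small leucine-rich proteoglycan of fibrous tissue, differed through NP. Its NP signal was 10.69, 10.66, 11.24 and 10.28 in CTR, against 12.36, 11.74, 12.15 and 11.67 in cKO, while AF had 14.47 to 15.85 and 14.06 to 15.23. NP was thus higher in all 4 cKO animals by 1.26 on average (adjusted p = 0.245), AF had -0.41, and the difference was 1.68 (0.87 to 2.49). Gal3st2, a galactose sulfotransferase, had 0.38 in NP and -1.24 in AF, a difference of 1.62 (0.95 to 2.29). Acad9, which assembles respiratory complex I, and Zfp142, a zinc finger protein, had 0.46 in NP and -0.53 in AF each, and Myo9b, a myosin, had 0.35 and -0.54. Adgrg6, Fgfrl1, Gjc3 and Acan complete the 10. Only Gjc3 had overlapping animals.

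**Figure D4:**
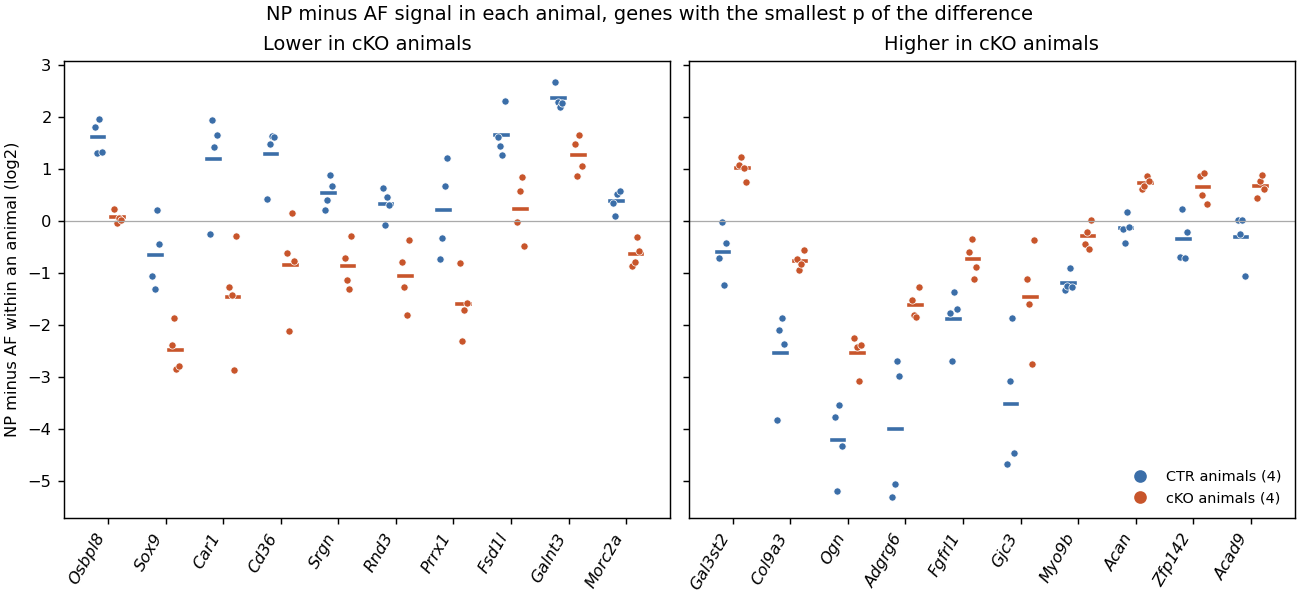
NP minus AF log2 signal (vertical axis) within each of the 4 CTR (blue) and 4 cKO (orange) animals, with group means as bars, for the 10 genes of smallest p in each direction. All but Gjc3 have non-overlapping animals, which the choice by p favours, and none passed the adjusted test (lowest adjusted p 0.624).

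Outside the level rule, the lowest adjusted p belonged to a gene bright in AF alone. Ppp1r1b, a phosphatase inhibitor of signalling, was at 5.17 to 5.51 in NP controls, below the negative controls, and fell by 2.71 in AF (adjusted p = 0.000487). Its difference of 2.84 had the lowest adjusted p of all probe sets, 0.124, and says nothing of NP, where no fall could be seen. The actin-severing gene Scin likewise had 7.28 to 7.70 in NP controls and fell by 2.45 in AF (adjusted p = 0.000661), with a difference at an adjusted p of 0.624. Thsd4, a thrombospondin-repeat protein, was dim in the controls of both compartments (3.98 to 4.91 in NP, 5.51 to 7.82 in AF) and rose by 2.51 in AF (adjusted p = 0.0103), with a difference of -2.70 (adjusted p = 0.275). These 3 were named after their values were seen. In all, 898 probe sets were left out because the NP controls alone were under 8, 568 because the AF controls alone were, and 14179 because both were.

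Most cartilage matrix genes were lower in both compartments, with the lower median in AF. Of 14 genes of the cartilage matrix and Sox9 target list at 8 or above (31 measured), 12 were lower in NP and 12 in AF, with medians of -0.70 and -1.16 against -0.07 and 0.11 over all 5717 genes. None passed in NP and Acan and Fgfr3 fell in AF. The median difference was 0.47 against -0.19, and 5 of the 14 (35.7%) had a lower value, against 70% of the 5717 genes. Col2a1, collagen II, had -1.07 in NP and -2.72 in AF (difference 1.65, -0.14 to 3.45), with NP controls at 7.80 to 8.33 and AF controls at 12.96 to 16.01. Its NP cKO signals, 6.42 to 7.35, lay at or near the negative control medians, so its NP value is limited from below. Hapln1, the link protein of aggrecan, had near-equal values, -1.83 and -1.69 (difference -0.13, -1.49 to 1.23), and Snorc, a cartilage proteoglycan, had -1.11 and -1.69. Sox5 and Sox6, the partners of Sox9, had -0.16 and -0.48, and -0.38 and -0.11. Prelp was the only gene higher in both, by 0.43 and 0.07. Hapln1, Snorc, Sox5, Sox6 and Prelp were named after their values were seen.

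The AF controls were themselves spread for this list. The mean of all 31 measured genes on the AF control arrays was 13.43, 12.80, 11.59 and 12.12 in C1 to C4, and 10.99 to 11.81 in the cKO arrays, so that M3 lay above C3. In NP it was 8.70 to 9.01 in controls and 8.20, 8.26, 8.57 and 9.56 in M1 to M4, where M4 also had the high tendon genes. The 14 genes at 8 or above were separate in AF (14.22 to 15.27 against 13.09 to 13.77), and in NP M4 reached 12.15 within the control range of 12.12 to 12.39.

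Synthesis and sulfation of glycosaminoglycans, the sugar chains of proteoglycans, held 1 gene that fell in both compartments. Over 19 genes the medians were -0.11 in NP and -0.31 in AF, and Slc26a2 alone passed. Papss2, which makes the sulfate donor, had -0.51 in NP and -2.73 in AF (adjusted p = 0.0537), with a difference of 2.22 (0.60 to 3.84, unadjusted p = 0.0111). Its AF control signals were 16.89, 15.09, 12.71 and 14.92, so C3 lay near the cKO range of 11.94 to 12.51. Its paralogue Papss1 had -0.81 in NP and -0.08 in AF, a difference of -0.74 (-1.34 to -0.13). Chst11, a chondroitin sulfotransferase, had -0.60 and -1.83, and Xylt1, which starts the chains, had 0.12 and -0.56.

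Genes that mark the compartments themselves held no call. Of 14 notochord and NP genes none passed in NP or AF, and the medians were -0.14 and 0.10. Cd24a had -0.16 and 0.43, Lgals3, galectin-3, -0.37 and 0.63, and Ncam1 -0.27 and 0.20. Car3, carbonic anhydrase 3, was at 19.89 to 19.92 in all 4 group means, at the top of the scale, so a change in it could not be seen. Of 7 annulus and tendon genes none passed, with medians of 0.23 and -0.08. Clu, clusterin, had 1.71 in NP (adjusted p = 0.475) and 0.14 in AF, and with Ogn it was 1 of 2 genes of the list at an unadjusted p under 0.05 in the contrast. Its NP signal was 12.87 to 14.70 in CTR and 14.13, 14.74, 15.54 and 17.34 in M1 to M4. Without M4, the NP array with the highest tendon genes, the NP value of Clu was 1.08 and its difference went from 1.57 to 0.95. Col1a1 and Col1a2, collagen I, had 0.23 and 0.08, and 0.40 and -0.08.

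Collagen processing, hypertrophy and matrix protease genes had no call in either compartment. Their median differences were -0.04, -0.09 and -0.25, and the first and second turned positive after quantile normalization (0.19 and 0.16). Among 13 proteases and inhibitors, 12 (92.3%) had a lower contrast, against 70% of the 5717 genes, with medians of 0.19 in NP and 0.45 in AF. Adam10, a sheddase, had 0.44 and 1.08, and Mmp14, a membrane collagenase, -0.18 and 0.77.

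In signalling, the FGF list held the AF calls Fgfr3 and Fgfrl1, and 8 of its 9 genes were lower in NP and 6 in AF. No gene of the list passed in the contrast. Dusp6, a phosphatase induced by FGF signals, had -1.12 in NP and -0.02 in AF (difference -1.10, -2.09 to -0.11), Fgf2 -0.13 and 0.82, and Spred2, an inhibitor of the pathway, 0.11 and 0.90. Of 26 TGF-beta and BMP genes and 15 Wnt genes none passed, and their median differences of -0.12 and -0.05 turned to 0.08 and 0.15 after quantile normalization. Ltbp1, which tethers latent TGF-beta, had 0.01 and 0.93, and the Wnt receptor gene Fzd2 -1.03 and -0.13.

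Respiratory chain and ribosomal protein genes were mostly lower in the contrast, as were 70% of the 5717 genes. Of 54 respiratory chain genes, 51 (94.4%) had a lower NP minus AF value in cKO, with medians of -0.09 in NP and 0.39 in AF. Their median difference was -0.46, and -0.27 after quantile normalization. Ndufs4 of complex I had the smallest p, with -0.58 and 0.54 (difference -1.13, -1.78 to -0.47) and non-overlapping animals. Of 52 ribosomal protein genes, 49 (94.2%) had a lower contrast, with medians of 0.01 in NP and 0.37 in AF. Their difference of -0.34 was -0.09 after quantile normalization. Of 31 hypoxia and glycolysis genes, 23 (74.2%) were lower in the contrast, near the share of all genes, with a median of -0.11 that turned to 0.09. No gene of these 3 lists passed in NP, AF or the contrast. On the AF arrays, the mean of the 54 respiratory genes was 10.95, 11.15, 10.87 and 10.63 in C1 to C4. It was 11.09, 11.45, 11.42 and 11.16 in M1 to M4. The neutrophil means of these AF arrays were 9.98, 7.46, 6.51 and 7.21 in C1 to C4, and 10.26, 10.07, 11.11 and 8.42 in M1 to M4. The part of blood cells in the respiratory values was not tested.

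Stress and inducible genes showed no compartment call. Of 26 endoplasmic reticulum and stress genes, Nupr1 and Stc2 changed in AF as given above, and the median difference of -0.22 turned to 0.06 after quantile normalization. The 24 immediate early genes had a median of -0.29 in NP and 0.27 in AF, but Fosb alone had an interval of -4.06 to 1.33, and the mean of the 24 on the NP control arrays ran from 11.06 to 13.13. The 12 interferon genes were all lower in NP, at a median of -0.66, and 6 were lower in AF, at -0.03. Of the 12, 6 had an unadjusted p under 0.05 in the contrast, all lower, where 5.7% of the 6561 probe sets had such a value, among them B2m, a subunit of MHC class I (-0.50 and 0.85), and Ifit2 (-0.68 and 0.16). B2m is also abundant in blood cells, and its highest array was AF M3 (15.77). The part of blood cells in the B2m values was not tested. The mean of the interferon genes was highest in C3 in NP (11.23) and at 9.70 to 10.45 on the other NP arrays.

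Traffic, lipid and membrane lists were mixed. Of 48 lysosome and sorting genes 3 fell in NP (Man2b1, Snx10 and Vps35) and none in AF. Over all 5717 genes, 24 were called in NP and 14 in AF, and 0.122% of all probe sets tested fell in NP. The lists were chosen with earlier results of these data known, so counts of calls in a list are a description. In the contrast 41 of the 48 (85.4%) were lower, against 70% of the 5717 genes. Vps29, a retromer partner of Vps35, had -0.61 and 0.45 (difference -1.06, -1.79 to -0.33). Fasn, fatty acid synthase, had -0.93 in NP and -0.01 in AF, and Hmgcs1 of cholesterol synthesis -0.66 and 0.23. Of 11 gap junction and channel genes, Gjc3, Kcnip3 and Trpm4 fell in NP and the first 2 in AF, beside 24 and 14 calls over the 5717 genes. Trpv4, a mechanosensitive calcium channel, had -0.51 in NP and -1.71 in AF (difference 1.20, -0.05 to 2.44). Among 34 actin regulators, Tmod2 fell in NP, 28 (82.4%) were lower in the contrast, and the medians were 0.11 and 0.41. Tpm2, a tropomyosin, had 0.54 and 1.79, on AF arrays where M2 and M4 carried the muscle signal.

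**Figure D5:**
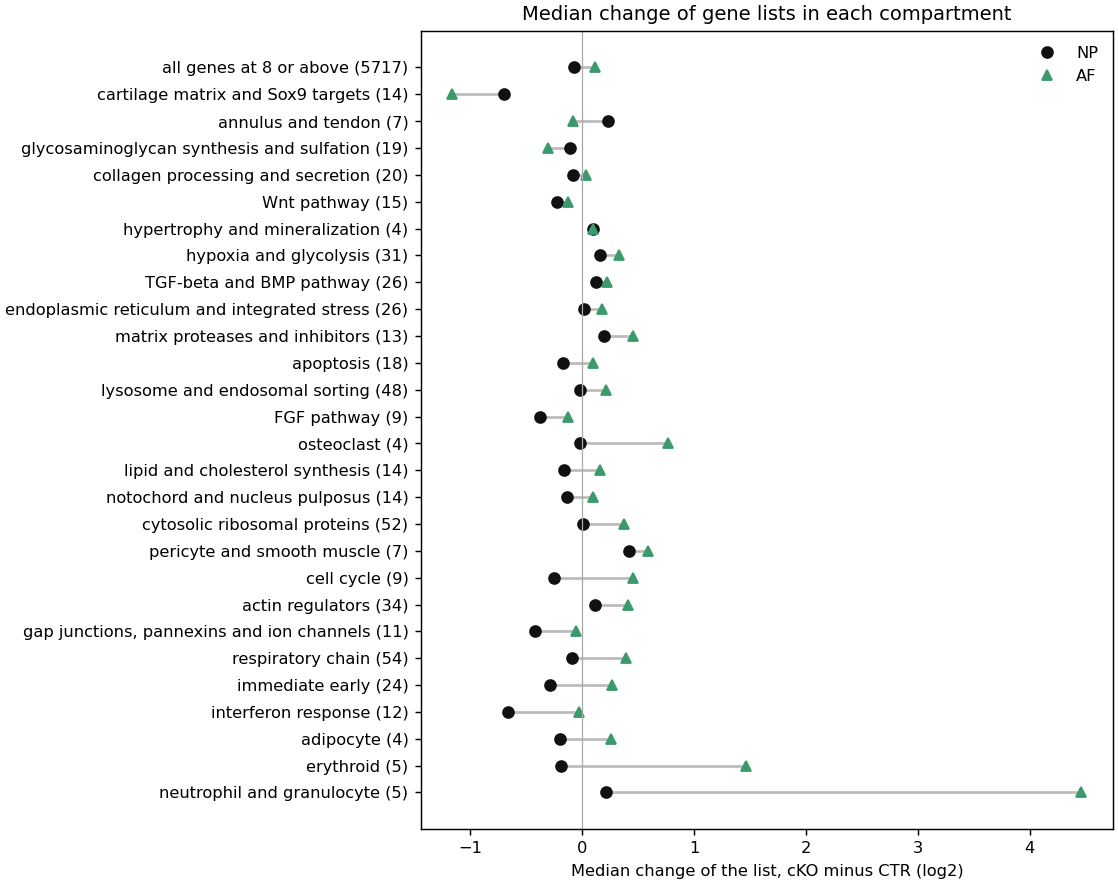
Median change from CTR to cKO (horizontal axis, log2) in NP (circles) and AF (triangles) of each gene list with at least 4 genes at 8 or above, ordered by median difference, with gene numbers in brackets. Cartilage matrix genes lie lowest in AF (-1.16) and are low in NP (-0.70), and the neutrophil (4.46) and erythroid (1.46) lists lie far right in AF.

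Markers of blood cells gave the largest values of the contrast. Of 25 neutrophil genes measured, 5 were at 8 or above in both controls, and their median was 0.21 in NP and 4.46 in AF. S100a8, a granulocyte alarmin, had an AF signal of 15.21, 9.74, 5.34 and 9.0 in C1 to C4 and 16.39, 15.89, 16.20 and 13.05 in M1 to M4, with C1 inside the cKO range. The NP signal was 7.53 to 10.86 in CTR and 4.72 to 10.59 in cKO. Its difference of -6.25 (-9.96 to -2.55) did not pass with all animals, and Ngp (-5.24) and S100a9 (-4.34) were like it. The 5 erythroid genes had -0.19 in NP and 1.46 in AF at the median, and all 5 had a lower contrast at an unadjusted p under 0.05. Car2, with -0.05 and 2.80, is on the erythroid and the osteoclast list. Of 40 muscle genes 2 and of 29 macrophage genes 2 were at 8 or above, with medians of 0.84 and 1.93 in AF. No lymphocyte gene of 21 was. Tagln, a smooth muscle gene also found in fibroblasts, had 2.64 in NP (adjusted p = 0.399) and 1.10 in AF.

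The edge set by the level of 8 is described by the genes nearest to it and by other levels. Just inside it were Fnip2, with control means of 8.0 in NP and 8.02 in AF and a difference of -0.20, and Baz1a, with 9.16 and 8.0 and a difference of -1.01. Just outside were Eml1, with 8.0 in NP and 8.86 in AF, and Enkur, with 8.69 and 8.0, each slightly under 8 before rounding, with differences of -0.46 and -0.63. With a level of 7 or 9 in place of 8, the NP count was 25 or 22 and the AF count 15 or 11, and the contrast had 0 calls. As none of the 22206 probe sets passed in the contrast, its count could not depend on the level. Because control arrays set the level, a gene dim in controls and bright in cKO could not enter. With the level set over all arrays, NP had 23 calls, AF 13 and the contrast 0.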

How the data were processed

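The 16 RNA samples, 8 of NP and 8 of AF, were hybridised to 16 Affymetrix 1-colour arrays, with GeneChip WT Plus labelling per the labels' protocols. The deposited values are log2 signals that the authors made by sst-RMA, per the labels, in Transcriptome Analysis Console, per the submitters' processing notes. Neither its version nor a genome build is given in the sources used here. Filters on detection, p and fold, which the labels name, had not been applied to the table. Of 28846 probe sets, 6640 controls were left out, and 22206 entered each fit. Array medians lay between 6.66 and 6.89, and the number of arrays, not a read depth, limits the precision.

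The contrast was fitted with limma 3.58.1 in R 4.3.3 on 8 differences, NP minus AF within an animal, cKO against CTR. Arrays that share an animal code in their titles are of 1 animal, so the animal is the block. Checked on the values, deviations of the NP and AF arrays of an animal from their group means correlated at -0.364 to 0.483 over the 6561 probe sets. The consensus correlation of the NP and AF arrays of 1 animal was 0.035. The values thus showed little likeness within an animal, and the pairing rests on the titles. The NP and the AF change were fitted on 16 arrays as 4 group means. P-values were adjusted by Benjamini-Hochberg over the 22206 probe sets and called under 0.05. Tables and figures were made with Python 3.11.15, pandas 2.3.3 and matplotlib 3.10.9, and the fits were tested on simulated data.

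The probe sets, the 33 gene lists (1151 of 1270 genes measured) and the tests were chosen with earlier results of these data known. Named genes are those called in both compartments, up to 12 called in 1 compartment only by size, the 10 smallest p of the contrast per direction where under 5 pass, Sox9, up to 4 per list by p, and the 2 nearest to the level on either side. Predicted genes were counted only, and a gene stands for its brightest probe set. Gene symbols came from the platform annotation, and 2634 probe sets had none.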

Additional observations from a re-analysis of the deposited data

Results flagged for a closer look

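In 6 of 124 groups of 4 arrays or animals examined, 1 value stood apart from the other 3 by a gap large against the range of the group, which chance gives in about 1 of 20 groups. For Cd36, the NP minus AF value of C1 was 0.41, and the other controls had 1.47 to 1.63. For Meltf, M2 had -1.65 and the other cKO animals -1.02 to -0.91. The mean of the skeletal muscle genes was 6.81 on the AF array of C3 and 6.24 to 6.25 on those of the other controls. Neutrophil genes averaged 6.02 on the NP array of M3 and 7.06 to 7.22 on the other NP cKO arrays. Lymphocyte genes averaged 5.33 on the NP array of C3 against 5.52 to 5.54, and pericyte and smooth muscle genes 7.31 on that of C2 against 7.45 to 7.47.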

How the results depend on the processing

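The contrast had 0 calls with array weights, an intensity trend, both scalings, each filter and each level, all at the adjusted threshold, in the fit with no replicate block (0 calls, lowest adjusted p 0.203 among the 6561), and with any 1 animal left out. At the thresholds of the labels, an unadjusted p under 0.05 and a fold of 1.75, it had 1122 over all probe sets and 388 among the 6561 (257 lower, 131 higher), while NP had 174 (142 lower, 32 higher), AF 315 (139 lower, 176 higher) and both 61. With the animal as a random replicate block, NP kept 25, AF 14 and both 7. A second quantile normalization gave 26 in AF, and the 8 AF arrays alone gave 5. Leaving out 1 animal gave 9 to 23 in NP, 6 to 39 in AF, 5 to 10 in both, and a correlation of 0.20 to 0.43. Chosen after seeing the data, leaving out M2 and M4 gave 11 in NP, leaving out C1 and M3 gave 5 contrast calls (3 among the 6561) and 4 in both, and the correlation without called probe sets was 0.23. For named genes, 53 values kept their direction in all 987 alternatives, and 137 of these lost a call. The other alternatives kept their counts within 1.5 times. The cause of these shifts was not tested. With 4 animals a genotype, the unadjusted 95% interval of a difference reached 0.75 to either side in the median probe set. Larger differences also did not pass the adjusted limma test, such as that of Osbpl8 at -1.54 (adjusted p = 0.624). Signals near 6.14 to 6.59 could not show a fall.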
